A study of Mus musculus with 6 samples.

Results

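Matrix metalloproteases (MMPs) and their tissue inhibitors (TIMPs) were read in whole mouse lungs with and without Foxa2. The set holds 10 genes: the gelatinases Mmp2 and Mmp9, the stromelysin Mmp3, the collagenases Mmp8 and Mmp13, the macrophage elastase Mmp12, the membrane-bound Mmp14, and the inhibitors Timp1, Timp2 and Timp3. Every probe set annotated to exactly one of these genes was taken, which gave 22 of the 45037 probe sets tested. For counts over genes, each of 18193 genes was represented by its brightest single-gene probe set, and all 10 genes had at least 1. Total RNA of lungs at postnatal day 15 was hybridised to Affymetrix mouse arrays, 1 array per sample. The genotype label puts 3 samples in a wildtype control group and 3 in a Foxa2-/- group, called null lungs here, and the design text calls the controls littermates. The strain label of all 6 reads SPC(+)Cre(-) with Dox from embryonic day 6.5 to 12.5, which for the null lungs conflicts with the genotype label. Which cells lost Foxa2 is not stated in the labels used here. Foxa2 is a forkhead factor that controls transcription in airway and alveolar epithelium, and the study set out to relate it to type 2 inflammation and goblet cell excess.

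MMPs are zinc-dependent proteases that are made as inactive precursors and cut collagen, elastin and other matrix proteins once their propeptide is removed. TIMPs bind the active site of MMPs and block it, so the balance of proteases and inhibitors bears on how fast matrix is turned over. In the lung, macrophages are a known source of MMP12, neutrophils store MMP8 and MMP9 in granules, and MMP2, MMP14, TIMP2 and TIMP3 are made largely by mesenchymal cells.

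The deposited values are log2 signals, so a difference of 1 is a doubling, and array medians lay between 7.85 and 7.91. Precision is limited by having 3 arrays per group. Foxa2, read as a check of the labels, was 10.28, 10.56 and 10.28 in controls and 7.72, 5.38 and 5.13 in null replicates 1 to 3. All null lungs lay below all controls, and null replicate 1 kept the most signal (difference -4.30, SE 0.66, limma adjusted p = 0.0599). Whether its probe set lies in the deleted stretch is not stated. Alveolar epithelial markers were bright throughout, with 9 of 10 measured and a lowest mean of 12.81. Heart muscle markers were also present, with a lowest mean of 10.20. Controls had summed levels of 45.4 to 48.4 and null lungs of 39.3 to 46.8, and their part in the results was not tested. RNA integrity was read from Gapdh, whose control probe sets differed between the 3-prime and the 5-prime end by 1.06 to 1.23 in controls and by 0.91 to 0.97 in null lungs, so the groups did not overlap. For Actb the ranges overlapped, with 0.46 to 0.65 among controls against 0.43 to 0.47 among null lungs. These values stand beside every comparison below, and their part in them was not tested. In RNA of a whole organ, fewer cells of a type and less RNA per cell cannot be told apart.

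Mmp12 rose in the null lungs, and none of the other 9 genes passed the test. With limma and a Benjamini-Hochberg adjusted p under 0.05 over all genes, 1 of the 10 genes passed, beside 0.572% of all genes (0.473% higher and 0.0989% lower in null lungs). Before adjustment 3 genes had a p under 0.05, all higher in null lungs, beside 7.28% of all genes higher and 5.07% lower. Every null lung lay above every control for 3 of the 10 genes (Mmp9, Mmp12 and Timp1), beside 10.8% of all genes. None of the 10 lay below every control, beside 8.73% of all genes. The differences of the other 7 were positive for Mmp3 and Mmp8 and negative for Mmp2, Mmp13, Mmp14, Timp2 and Timp3, so 5 of 10 were positive, beside 50.8% of all genes. The median difference over the 10 genes was 0.18, and over all genes it was 0.01. The median size of the difference, whatever its sign, was 0.40 over the 10 genes and 0.16 over all genes. Over probe sets, none of the 22 passed limma after adjustment over all 45037, of which 0.0999% passed (0.0799% higher, 0.02% lower). Unadjusted, 4 of the 22 had a p under 0.05, all higher in null lungs, beside 6.03% of all probe sets higher and 4.66% lower. Of the 22, 13 differences were positive (51.1% of all), 5 probe sets had every null lung above every control (9.73% of all) and 0 had every null lung below (7.76% of all).

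**Figure D1:**
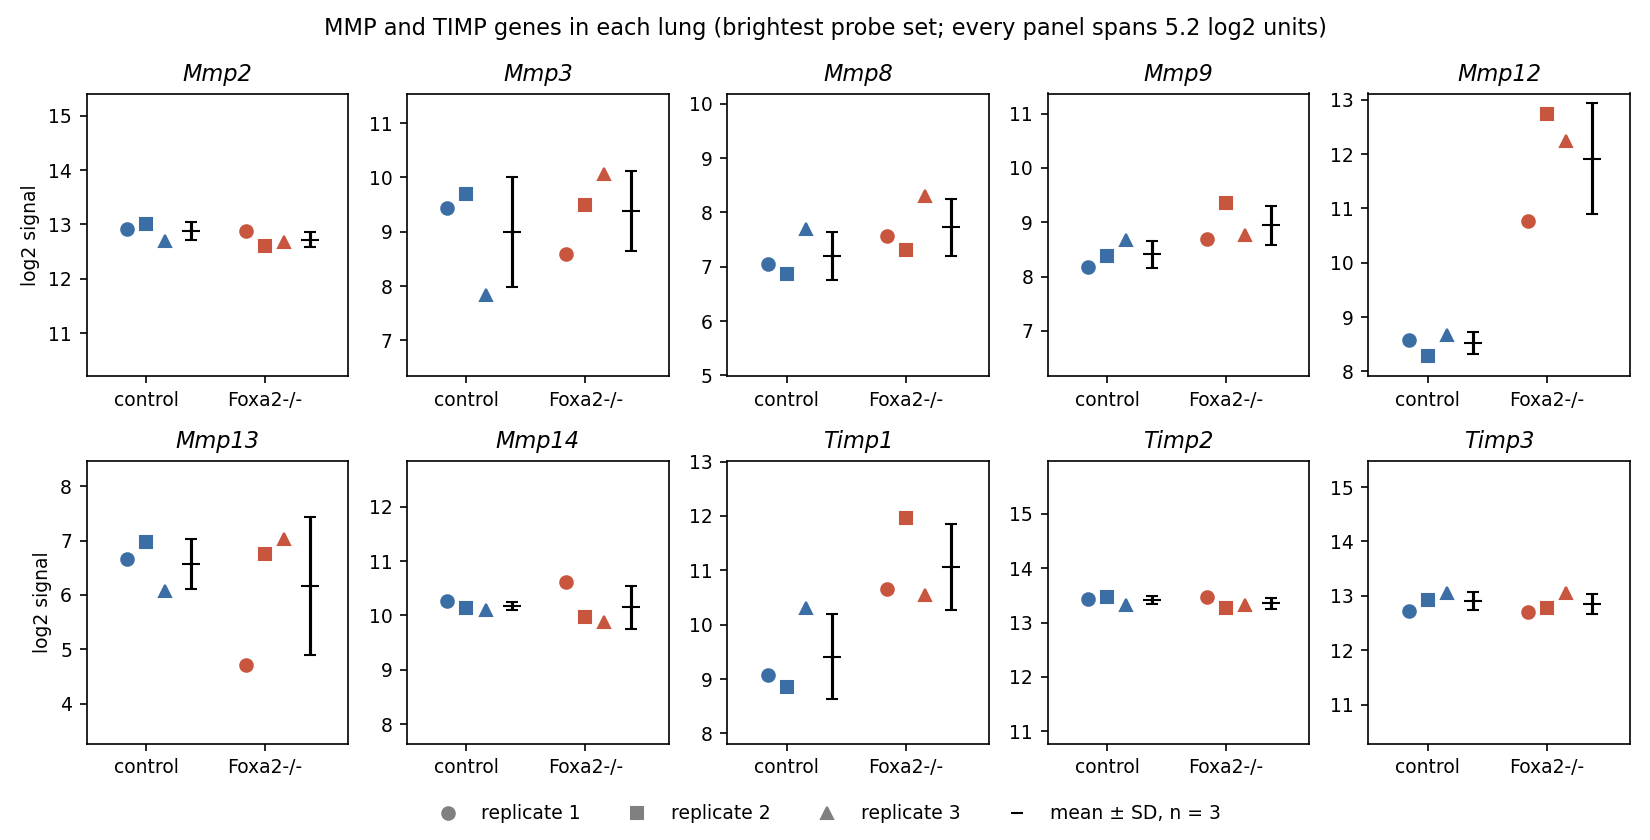
Log2 signal of the 10 genes in each lung, by group, with the mean and SD of 3 lungs beside the points. Every panel spans the same range, so that the separation of Mmp12 and Timp1 and the narrow spread of Mmp2, Timp2 and Timp3 can be compared.

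Mmp12 encodes the macrophage elastase, which cuts elastin and other matrix proteins. Its probe set, 1449153_at, read 8.58, 8.29 and 8.68 in control replicates 1 to 3 and 10.77, 12.74 and 12.24 in null replicates 1 to 3. The lowest null lung thus stood more than 2 log2 units above the highest control, and null replicate 1 was the lowest of the null lungs. The mean went from 8.52 ± 0.20 to 11.92 ± 1.03 (SD, n = 3 each), a rise of 3.40 (SE 0.48, 95% interval 2.24 to 4.55) with a limma adjusted p of 0.0499. On the linear scale this was 10.5-fold (95% interval 4.73 to 23.5). By size of rise Mmp12 stood at rank 21 of 18193 genes. The call lay at the threshold. Leaving out null replicate 1 raised the difference to 3.97 (adjusted p = 0.0119), whereas leaving out control replicate 1, 2 or 3 gave 3.43, 3.28 and 3.48 (adjusted p = 0.201, 0.178 and 0.123). Leaving out null replicate 2 or 3 gave 2.99 and 3.23 (adjusted p = 0.122 and 0.168). After cyclic loess the adjusted p was 0.0679 at a difference of 3.41. In the probe set fit the same difference had a limma adjusted p of 0.0821. Control replicate 2 and null replicates 2 and 3 share the first number in their sample titles, whose meaning is not given. Among these 3 samples the difference was 4.20 (adjusted p = 0.169 with that number as a fixed block).

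Genes whose profile over the 6 lungs was most like that of Mmp12 were sought among 13643 other genes with a mean above the 25th percentile of gene means, by the root mean square difference of profiles centred on their own means. The nearest was Duoxa1, a maturation factor of a dual oxidase, at 0.38 log2 units. It was followed by Tnfrsf9, a costimulatory receptor of activated T cells, at 0.41 and by Prg2, a granule protein of eosinophils, at 0.46. AA467197 (0.48) and Bcl2l15 (0.49) came next. Control means of these 5 genes ran from 5.92 for Duoxa1 to 7.23 for AA467197. In each of them null replicate 1 was the lowest null lung, an order that the selection by likeness to Mmp12 itself favours. This likeness is a description over 6 lungs.

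In the RefSeq gene table (assembly GRCm38.p6) Mmp12 lies on chromosome 9 in an unbroken run of 10 protein-coding MMP genes, in the order Mmp13, Mmp12, Mmp1b, Mmp3, Mmp1a, Mmp10, Mmp8, Mmp27, Mmp20 and Mmp7. Of these 4 belong to the set, and 9 had a single-gene probe set. The differences of the 8 measured neighbours ran from -0.41 for Mmp13 to 0.52 for Mmp8, and none passed. The 5 measured neighbours outside the set, Mmp1a, Mmp1b, Mmp7, Mmp10 and Mmp20, had group means of at most 4.99. The 25th percentiles of the arrays lay higher, from 5.69 to 5.78. Whether signals that dim exceed background cannot be read from the deposited values, and the differences of these 5 ran from -0.12 to 0.10.

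**Figure D2:**
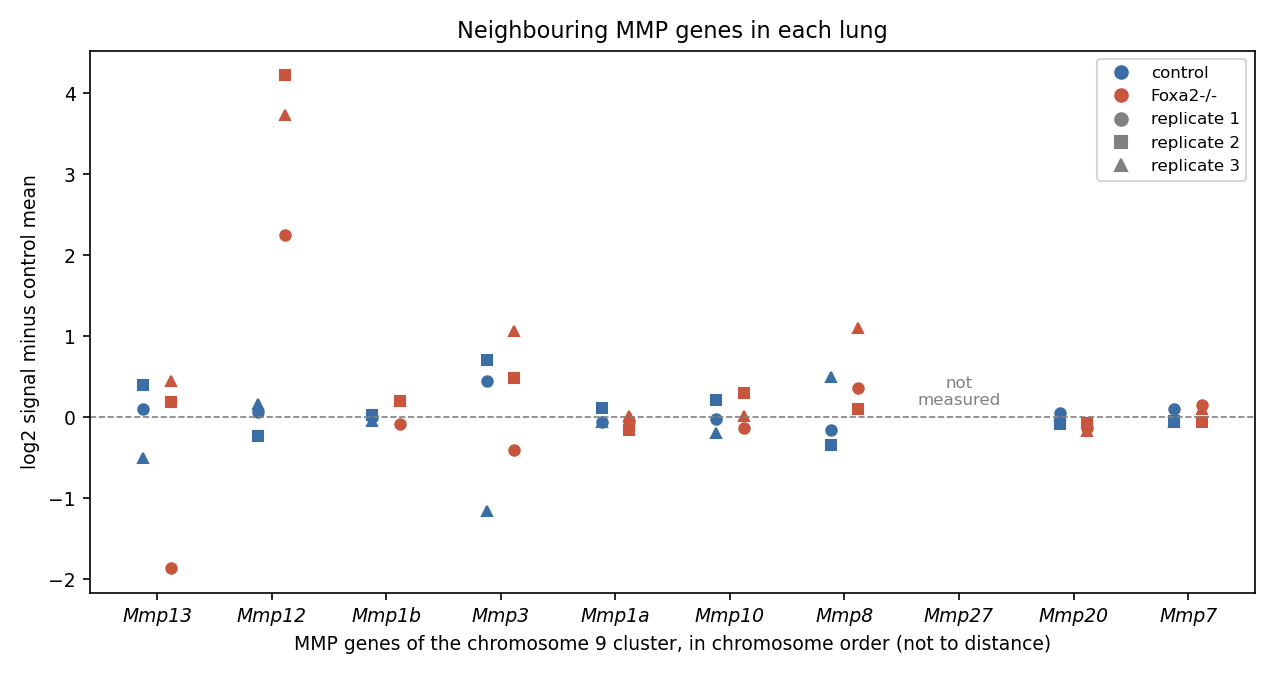
Log2 signal of each lung minus the control mean for the MMP genes of the chromosome 9 run, in chromosome order and not to distance. The null lungs stand between 2.25 and 4.22 above the control mean at Mmp12, while at every neighbour the null lungs overlap the controls.

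The windows before the start sites are shown for every gene of the set in the chromosome 9 run, of which Mmp12 alone passed, and for Timp1, the inhibitor with the largest difference. RefSeq promoter windows (GRCm38.p6) were found for 8 of the 10 genes in 9 windows, with 2 starts listed for Mmp12, and the 250 bases before each start were searched on both strands. Capitals mark the AP-1 motif, whose letters are TGANTCA. They also mark TATAAA, the letters searched for here as a TATA box. The remaining capitals mark TNTTTAC on either strand, a loose pattern for forkhead factors in which N is any base. A match to it is therefore not by itself a forkhead site. None of the marked matches overlaps another. All windows printed here are on the plus strand, written 5′ to 3′. They are chr9:7344147-7344396 for the first and chr9:7347124-7347373 for the second listed start of Mmp12, chr9:7272264-7272513 for Mmp13, chr9:7445572-7445821 for Mmp3, chr9:7558179-7558428 for Mmp8 and chrX:20869916-20870165 for Timp1.
Mmp12, first start: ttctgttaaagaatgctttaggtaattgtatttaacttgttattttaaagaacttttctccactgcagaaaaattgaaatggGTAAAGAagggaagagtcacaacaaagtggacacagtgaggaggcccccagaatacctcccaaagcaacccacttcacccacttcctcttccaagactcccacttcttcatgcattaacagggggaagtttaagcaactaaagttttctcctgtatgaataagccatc
Mmp12, second start: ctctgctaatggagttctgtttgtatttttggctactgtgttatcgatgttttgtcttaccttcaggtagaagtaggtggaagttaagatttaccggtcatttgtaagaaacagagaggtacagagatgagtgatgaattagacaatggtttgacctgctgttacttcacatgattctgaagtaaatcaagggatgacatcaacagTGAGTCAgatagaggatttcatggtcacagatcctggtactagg
Mmp13: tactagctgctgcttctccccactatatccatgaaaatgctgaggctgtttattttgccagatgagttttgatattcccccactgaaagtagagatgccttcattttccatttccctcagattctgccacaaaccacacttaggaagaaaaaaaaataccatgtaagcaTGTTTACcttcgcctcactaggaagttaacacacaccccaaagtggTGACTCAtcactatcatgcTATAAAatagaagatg
Mmp3: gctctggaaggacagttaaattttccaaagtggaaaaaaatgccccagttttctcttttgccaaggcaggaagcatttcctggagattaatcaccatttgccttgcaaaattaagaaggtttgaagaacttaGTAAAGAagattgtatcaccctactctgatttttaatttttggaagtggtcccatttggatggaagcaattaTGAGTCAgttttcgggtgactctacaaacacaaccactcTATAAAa
Mmp8: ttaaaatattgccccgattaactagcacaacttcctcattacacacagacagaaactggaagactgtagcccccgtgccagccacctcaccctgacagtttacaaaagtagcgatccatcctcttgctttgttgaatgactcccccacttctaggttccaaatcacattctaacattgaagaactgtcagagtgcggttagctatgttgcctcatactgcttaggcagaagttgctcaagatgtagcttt
Timp1: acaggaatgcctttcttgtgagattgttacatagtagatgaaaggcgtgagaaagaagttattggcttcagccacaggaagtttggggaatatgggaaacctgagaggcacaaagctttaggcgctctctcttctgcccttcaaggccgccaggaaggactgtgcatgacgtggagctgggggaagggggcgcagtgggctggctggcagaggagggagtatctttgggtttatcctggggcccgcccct
The AP-1 motif was found once before the second start of Mmp12, 44 to 38 bases before it (TGAGTCA), once before Mmp3, 46 to 40 bases before it (TGAGTCA), and once before Mmp13, 35 to 29 bases before it (TGACTCA). It was in 6.75% of all 32851 windows of that length. TATAAA was found 7 to 2 bases before the start of Mmp3 and 16 to 11 bases before that of Mmp13, and in 12.4% of all windows. Whether either match works as a TATA box was not tested. The loose forkhead pattern was matched before Mmp13 as TGTTTAC. Before Mmp3 and the first listed start of Mmp12 the match was GTAAAGA. On the other strand this reads TCTTTAC, a form outside the usual forkhead core. With any base at N, the pattern was in 10.9% of all windows. The windows of Mmp8, Mmp14, Timp1, Timp2 and Timp3 held none of these. The share of G and C was 37.6% to 44.8% in the windows on chromosome 9, 55.2% at Mmp14, and 54.4%, 68.0% and 65.6% at Timp1, Timp2 and Timp3. Thus the AP-1 letters stand in 1 of the 2 windows of Mmp12, which rose, in those of Mmp3 and Mmp13, which did not pass, and not in that of Mmp8, which did not pass either.

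Mmp9 and Mmp2 encode the gelatinases, which cut denatured collagen and basement membrane collagen. The brighter probe set of Mmp9, 1416298_at, read 8.18, 8.37 and 8.67 in controls and 8.70, 9.36 and 8.77 in null lungs. The groups did not overlap, but the lowest null lung and the highest control differed by little. The difference was 0.53 (SE 0.22, 95% interval 0.0048 to 1.06) with a limma adjusted p of 0.401. The other probe set of Mmp9, 1448291_at, read 7.77, 7.62 and 8.03 in controls and 8.35, 8.93 and 8.30 in null lungs, again without overlap (0.72, SE 0.21, limma adjusted p = 0.287 over probe sets). In both probe sets null replicate 2 was the highest lung. Without it the difference of the brighter one was 0.33, and limma adjusted p values over all alternatives of this gene ran from 0.133 to 0.71.

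Mmp2 was bright in all lungs. Its brighter probe set, 1439364_a_at, read 12.92, 13.02 and 12.69 in controls and 12.87, 12.60 and 12.68 in null lungs. The groups overlapped through null replicate 1, while null replicates 2 and 3 lay below all controls, and the same held for the other probe set. The difference was -0.16 (SE 0.14, limma adjusted p = 0.692), with a 95% interval of -0.49 to 0.17, and the other probe set gave -0.16 (SE 0.18).

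Mmp14 encodes a membrane-bound protease that activates the MMP2 precursor on the cell surface in a complex with TIMP2. Its brightest probe set, 1440920_at, read 10.26, 10.15 and 10.11 in controls and 10.61, 9.97 and 9.87 in null lungs. Here null replicate 1 was the highest lung and null replicates 2 and 3 were the lowest. These lungs also lay below all controls in both dimmer probe sets, where null replicate 1 fell within the range of the controls. The differences were -0.02 (SE 0.21, limma adjusted p = 0.98, 95% interval -0.51 to 0.48), -0.29 (SE 0.26) and -0.31 (SE 0.22). Without null replicate 1 the first was -0.25 (SE 0.10, limma adjusted p = 0.331), and for Mmp2 it was -0.24 (SE 0.13, limma adjusted p = 0.458), so neither gene passed. The sign of the first Mmp14 value turned with median centring (0.005).

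Mmp3 encodes a stromelysin that cuts several matrix proteins and activates other MMPs, and Mmp13 an interstitial collagenase. Mmp3 (1418945_at) read 9.44, 9.70 and 7.83 in controls and 8.59, 9.48 and 10.05 in null lungs. Mmp13 (1417256_at) read 6.67, 6.97 and 6.07 in controls and 4.71, 6.76 and 7.02 in null lungs. For both genes control replicate 3 was the lowest control and null replicate 1 the lowest null lung, and the spread within a group exceeded the difference between them. The difference of Mmp3 was 0.38 (SE 0.57, 95% interval -0.99 to 1.76, limma adjusted p = 0.82), and without control replicate 3 it was -0.20. That of Mmp13 was -0.41 (SE 0.62, 95% interval -1.88 to 1.07, limma adjusted p = 0.823), and without null replicate 1 it was 0.32. These intervals leave room for changes of more than 1 log2 unit. The Mmp13 signal of null replicate 1 lay below the 25th percentile of its array (5.78).

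Mmp8, the collagenase of neutrophil granules (1449366_at), read 7.05, 6.87 and 7.70 in controls and 7.57, 7.30 and 8.31 in null lungs. Null replicate 3 was the highest lung, but control replicate 3 stood above the other null lungs. The difference was 0.52 (SE 0.32, 95% interval -0.25 to 1.30, limma adjusted p = 0.58), and without null replicate 3 it was 0.23. Of 10 neutrophil markers 8 were measured, with 7 positive differences, beside 50.8% of all genes. For 0 of the 8 did the groups separate, beside 10.8% of all genes with every null lung above and 8.73% below. An unadjusted limma p under 0.05 was found for 0 of the 8, beside 7.28% of all genes higher and 5.07% lower. Controls summed to between 67.8 and 74.2 and null lungs to between 69.4 and 73.7, and the dimmest, Elane, averaged 4.30. The groups thus overlapped in the neutrophil markers, as they did in Mmp8.

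Timp1 encodes an inducible, secreted inhibitor of most soluble MMPs. Its probe set, 1460227_at, read 9.07, 8.85 and 10.30 in controls and 10.66, 11.97 and 10.54 in null lungs. All null lungs lay above all controls, with control replicate 3 close to null replicates 1 and 3 and null replicate 2 apart from the rest. The mean went from 9.41 ± 0.78 to 11.06 ± 0.79 (SD, n = 3 each), a difference of 1.65 (SE 0.51, 95% interval 0.42 to 2.87) or 3.13-fold (95% interval 1.34 to 7.32). It did not pass after adjustment over all genes (limma adjusted p = 0.258). Without control replicate 3 the difference was 2.09, and without null replicate 2 it was 1.19. In none of the alternatives did Timp1 pass, with adjusted p values from 0.0854 to 0.56.

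Timp2, a constitutive inhibitor that also takes part in the activation of the MMP2 precursor, had 6 probe sets. The brightest, 1454677_at, read 13.43, 13.47 and 13.33 in controls and 13.47, 13.27 and 13.32 in null lungs. These levels lay within a narrow band, and the groups overlapped. The difference was -0.05 (SE 0.11, 95% interval -0.32 to 0.21, limma adjusted p = 0.878). The other 5 probe sets had positive differences of up to 0.29, so the mean of the probe sets gave 0.10 and another sign. In the probe set with the largest of them, 1460287_at, all null lungs (12.33, 12.26 and 12.13) lay above all controls (12.12, 11.86 and 11.88), without passing the test (limma adjusted p = 0.499).

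Timp3, an inhibitor that binds to the matrix and also blocks several ADAM proteases, had 4 probe sets with differences from -0.11 to 0.06. The brightest, 1449335_at, read 12.72, 12.92 and 13.06 in controls and 12.70, 12.78 and 13.05 in null lungs. The groups overlapped throughout, with a difference of -0.06 (SE 0.15, 95% interval -0.41 to 0.30, limma adjusted p = 0.906). Over the 4 probe sets the 95% intervals reached from -0.59 to 0.47.

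**Figure D3:**
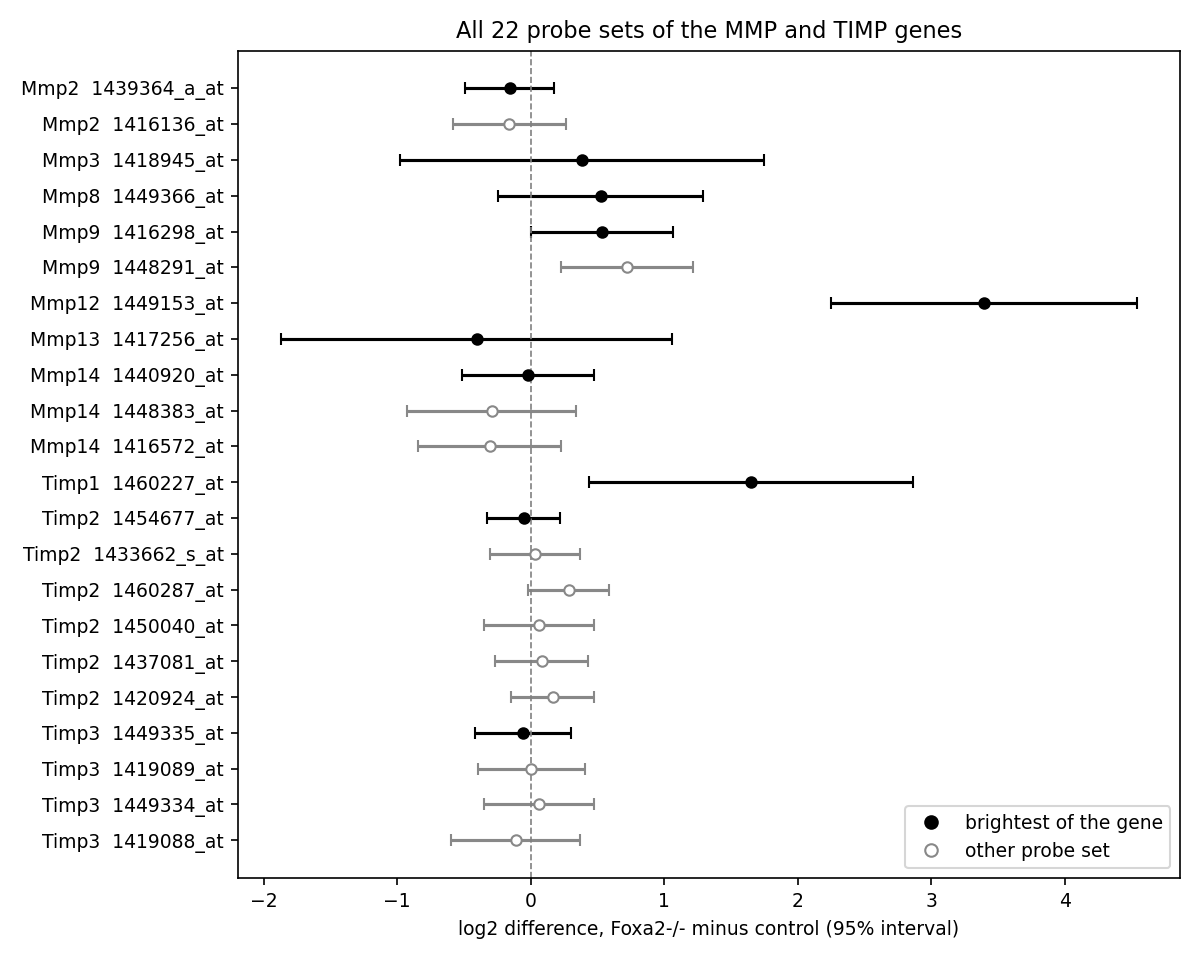
Log2 difference of null minus control lungs with 95% intervals for all 22 probe sets, from the fit over all probe sets, with the brightest of each gene filled. The intervals of Mmp12, of Timp1 and of both Mmp9 probe sets lie above 0, and those of all other probe sets include it.

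Of the other members of the family, 13 of 18 listed genes had a single-gene probe set and none passed, while 4 had an unadjusted limma p under 0.05. Of these 4, Mmp19 was higher in null lungs, and Mmp11 (-0.51), Mmp16 (-0.38) and Reck were lower. Over all genes the unadjusted share was 7.28% higher and 5.07% lower. Every null lung lay above every control for 1 of the 13 and below for 3, beside 10.8% and 8.73% of all genes. The list median was -0.06. Mmp19, a protease of vessels and macrophages, went from 10.94 ± 0.27 to 11.77 ± 0.26 (SD, n = 3 each), a difference of 0.84 (SE 0.19, limma adjusted p = 0.144), with all null lungs above all controls. Reck, a membrane-anchored MMP inhibitor, had a difference of -0.41 (SE 0.14, limma adjusted p = 0.3), with all null lungs below all controls.

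Among 26 MMP activators and other matrix-degrading proteases none passed, and the median difference was 0.18. An unadjusted limma p under 0.05 was found for 10, all higher in null lungs except Adamts1 (-0.59), beside 7.28% of all genes higher and 5.07% lower. The smallest p belonged to Adam8, a membrane protease of leukocytes, which went from 9.11 ± 0.21 to 10.80 ± 0.48 (SD, n = 3 each), a difference of 1.69 (SE 0.25, limma adjusted p = 0.0582). It was followed by Ctsk, the collagen-cutting cathepsin of macrophages and osteoclasts (1.10, SE 0.18, limma adjusted p = 0.0713). The list holds 7 cathepsins, singled out here after their values were seen, so the count is a description. None of them passed. All 7 differences were positive (0.31 to 1.10, limma adjusted p from 0.0713 to 0.617), beside 50.8% of all genes. In 6 every null lung lay above every control, beside 10.8% of all genes. The exception was Ctsg, the cathepsin of neutrophil granules, whose groups overlapped (0.42, SE 0.29).

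Of 13 listed inhibitors of other proteases 11 were measured. Slpi, an inhibitor of neutrophil elastase made by airway epithelium, rose from 11.39 ± 0.31 to 12.82 ± 0.11 (SD, n = 3 each), by 1.43 (SE 0.18, limma adjusted p = 0.0382). Serpina3n, a serine protease inhibitor of the acute phase, rose from 10.44 ± 0.11 to 11.60 ± 0.22, by 1.16 (SE 0.15, limma adjusted p = 0.0406). Thus 2 of the 11 passed as higher, beside 0.473% of all genes. The other 9 did not pass, and 6 of the 11 had every null lung above every control, beside 10.8% of all genes. None of the 11 passed without control replicate 1, control replicate 2, null replicate 2 or null replicate 3, after cyclic loess or with the title number as a fixed block, where 3 to 5 had an unadjusted limma p under 0.05. Over all genes 0 passed in these settings, except 7 without null replicate 2 and 48 after cyclic loess. Without control replicate 3, 1 of the 11 passed, beside 19 of all genes.

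Of 23 matrix substrates and matrix-building genes 21 were measured. None passed, none had an unadjusted limma p under 0.05, and the median difference was -0.07. Controls summed to between 268.4 and 269.8 and null lungs to between 266.4 and 267.0. Differences were -0.67 (SE 0.34, limma adjusted p = 0.497) for Dcn, a collagen-binding proteoglycan, and -0.25 (SE 0.14, limma adjusted p = 0.532) for Lamb1, a laminin chain. Of 25 genes known to regulate MMP genes 24 were measured, with a median difference of 0.30. They are cytokines and transcription factors, apart from the membrane protein Bsg. None passed and 10 had an unadjusted limma p under 0.05, all higher in null lungs, beside 7.28% of all genes higher and 5.07% lower. Il10, an anti-inflammatory cytokine (0.87, SE 0.20, limma adjusted p = 0.137, dim in all lungs), and Osm, a cytokine that can induce Timp1 (0.80, SE 0.20, limma adjusted p = 0.176), had the smallest p.

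Of the macrophage markers, 2 passed beside Mmp12. Of 18 measured markers of alveolar macrophages and of monocytes and interstitial macrophages, 16 had a positive difference and 13 had every null lung above every control. Over all genes these shares were 50.8% and 10.8%, while 0.473% of all genes passed as higher and 0.0989% as lower. These shares also stand beside the marker counts below. The markers with a negative difference were Fabp1 (-1.05) and Krt79 (-0.37), whose groups overlapped. Marco (0.18, limma adjusted p = 0.788), Fabp4 (0.40, limma adjusted p = 0.737) and Cx3cr1 (0.02, limma adjusted p = 0.97) were positive, but their groups also overlapped. The largest positive difference was that of Itgax, an integrin chain of alveolar macrophages that is not particular to them. Itgax rose by 1.94 (SE 0.23, limma adjusted p = 0.036), against 3.40 for Mmp12. Cd68, a lysosomal protein of macrophages, also rose (1.45, SE 0.13, limma adjusted p = 0.0198). The 10 alveolar macrophage markers, of which 2 passed, summed to between 101.7 and 105.5 in controls and between 107.0 and 111.4 in null lungs. The 8 other markers, none of which passed, summed to between 81.0 and 82.6 in controls and between 86.1 and 92.0 in null lungs. None of these markers was dim, with a lowest mean of 8.60. The calls of Itgax and Cd68 both ended without any single array other than null replicate 1, and with the title number as a fixed block (limma adjusted p from 0.0547 to 0.285). Without null replicate 1, 3 alveolar macrophage and 3 monocyte and interstitial macrophage markers passed. The medians of both lists were highest in null replicate 2 and lowest among null lungs in null replicate 1, as was Mmp12. This order was not particular to macrophage markers. The eosinophil median had it too (6.67, 8.09 and 7.82 in null replicates 1 to 3), and the T cell median was also highest in null replicate 2.

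Of the eosinophil markers 5 of 6 were measured, all with a positive difference, and 3 passed. These were the granule protein genes Prg2 (3.50, limma adjusted p = 0.0152), Epx (2.40, limma adjusted p = 0.0208) and Prg3 (1.55, limma adjusted p = 0.0429). Ccr3 (1.94, limma adjusted p = 0.487) and Il5ra (0.30, limma adjusted p = 0.748) did not pass, and their groups overlapped. None of the 5 passed without control replicate 1 or 2 or null replicate 2 or 3, or with the fixed block. Over all genes 0 passed in these settings too, except 7 without null replicate 2. Of the 5 markers, 2 passed without control replicate 3, without null replicate 1 and after cyclic loess. Null lungs had summed levels of 36.8 to 42.1, above the 28.6 to 32.7 of controls. The dimmest marker averaged 5.62, and Prg2, named above, is one of the 5. T cell markers (5 of 5 with a positive difference, none passing) summed to between 41.4 and 50.9 in controls and between 50.4 and 56.1 in null lungs, which overlap. Cd8a (2.27, limma adjusted p = 0.297) and Cd4 (1.06, limma adjusted p = 0.349) had every null lung above every control and an unadjusted p under 0.05. None of the 9 fibroblast markers passed and all 9 differences were negative, and their summed levels overlapped (112.4 to 115.3 in controls, 110.7 to 113.2 in null lungs). The fibroblast markers include 4 of the matrix genes above. No measured marker of smooth muscle (5), endothelium (6), alveolar epithelium (9), airway epithelium (4), B cells (3), heart muscle (4) or erythroid cells (2) passed, while 1 of endothelium (Tek, -0.30), 1 of alveolar epithelium (Sftpd, 0.68) and 1 of airway epithelium (Cyp2f2, -0.51) had an unadjusted limma p under 0.05. Of the airway markers 0 of 4 differences were positive, and 2 had every null lung below every control (8.73% of all genes). Of the alveolar markers 5 of 9 were positive, and 2 had every null lung above every control. The part of these cell types in the differences of Mmp12, Timp1 and Mmp9 was not tested.

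**Figure D4:**
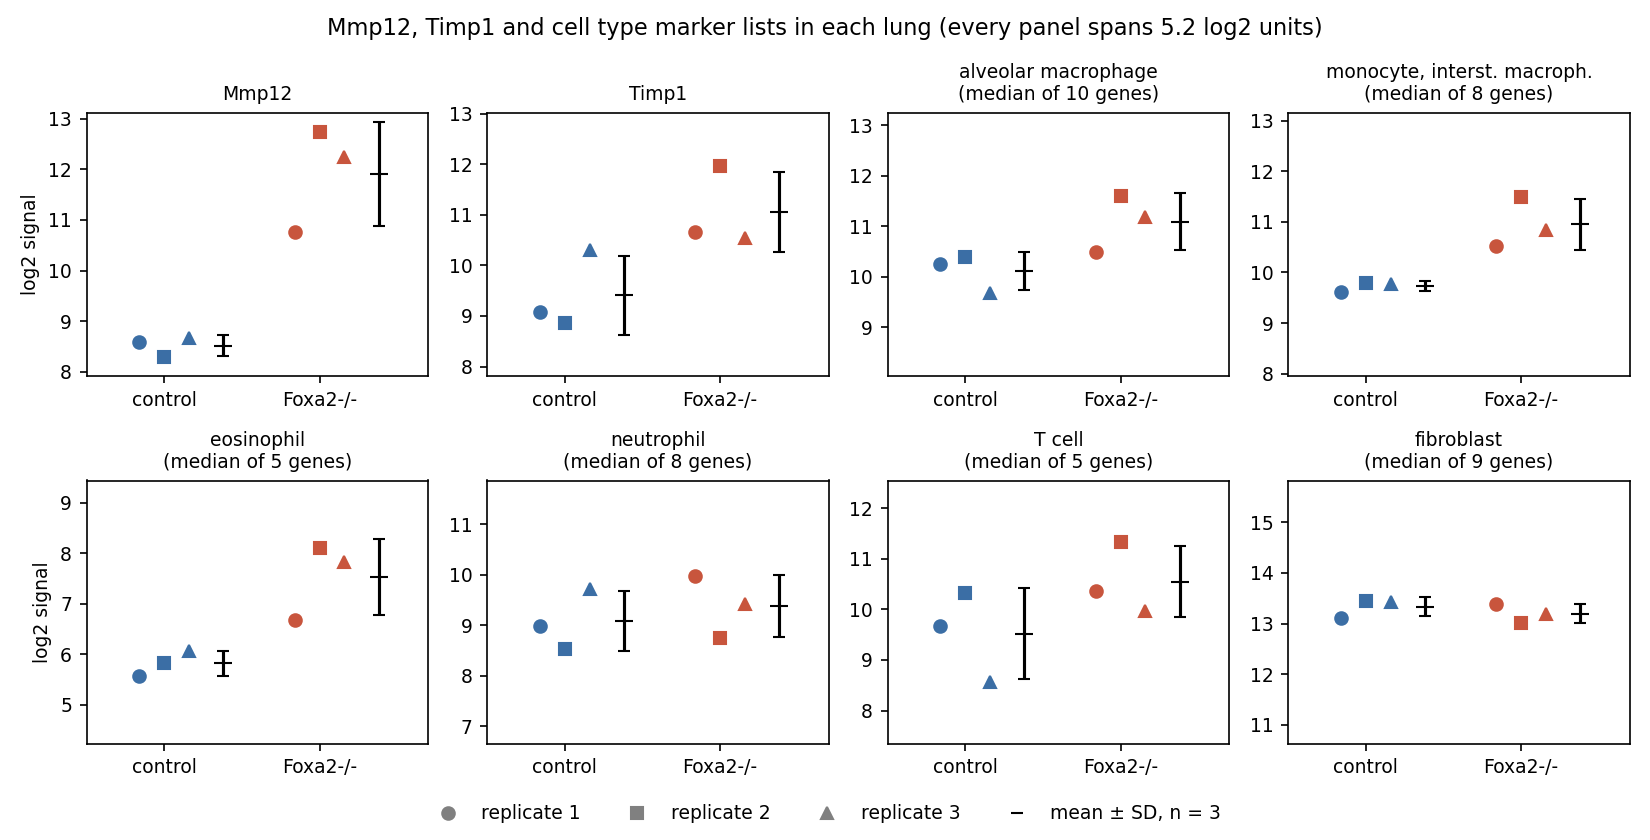
Log2 signal of Mmp12 and Timp1 and the median of each marker list in every lung, by group, with the mean and SD of 3 lungs. The null lungs stand above the controls in the eosinophil and macrophage panels, overlap them in the neutrophil, T cell and fibroblast panels, and null replicate 1 is the lowest null lung for Mmp12.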

How the data were processed

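The authors' deposited values are log2 signals per probe set for 6 arrays. The submitters' processing notes name RMA, a method that subtracts background and gives all arrays one distribution; no version or setting is stated. A change shared by most genes would thus be hidden, and dim or very bright signals can be compressed. The 64 control probe sets of the array maker were not used, and no filter on dim signal was set. Genes were named by the platform's own annotation (34945 probe sets with 1 symbol, 932 with several, which were not named, and 9160 unnamed here), and all 10 genes matched RefSeq.

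Null lungs were set against controls in limma 3.58.1 under R 4.3.3 (moderated two-sided test, no covariate), over genes and again over probe sets, with Benjamini-Hochberg adjustment. The procedure was tested on simulated data. Replicates were numbered in accession order. The labels do not tie arrays to separate animals, and p-values therefore reflect only the variation among these arrays, possibly technical. The genes of the set and all lists were chosen with earlier results of these data known. Named were all genes of the set, genes of the related lists that passed or, where none did, the 2 with the smallest p, and the 5 profiles nearest to a gene that passed; marker lists were given as ranges, and the marker genes named were chosen after their values were seen. Alternatives changed the scaling, the filter on dim signal, eBayes options (trend and robust), weights per array, the probe set rule (mean in place of brightest) and the threshold (0.1), took the title number as block, fixed or random, or left out 1 array.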

Additional observations from a re-analysis of the deposited data

How the results depend on the processing

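All alternatives used limma. The size of the Mmp12 rise ran from 2.99 to 4.20 and kept its direction throughout, but its call ended after cyclic loess, with the title number as a fixed block, and without any array other than null replicate 1, so the count of genes of the set that passed ran from 0 to 1 over the arrays left out and was 0 with cyclic loess and with the fixed block (2 with an unadjusted p under 0.05 in each). The count of its probe sets that passed, 0 with all arrays, was 1 (Mmp12) with array weights, with the title number taken as random block, at a threshold of 0.1 and without null replicate 1 (0 to 1 over the arrays left out). All genes passing numbered 0 to 249 over the arrays left out, 48 with cyclic loess, 52 among genes brighter than the median, 607 with array weights, 0 with the fixed block (2121 with an unadjusted p under 0.05), 399 with the random block and 320 at a threshold of 0.1, against 104.

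Of the activators and other proteases, 0 to 1 passed over the arrays left out, 1 with median centring and with probe sets averaged per gene, 4 with trend and robust settings and at a threshold of 0.1, 5 with the random block and 6 with array weights. Of the other inhibitors, 0 to 2 passed over the arrays left out, and 0 with cyclic loess and with the fixed block. Of the other family members 1 passed with array weights and with the random block, and of the regulators 2 with array weights.

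Of 146 alternative values of the 10 genes, 128 kept their direction and side of the threshold, 7 lost the call and 11 changed sign; the cause was not tested. Sign changes were all in differences that did not pass. Over the arrays left out, Mmp3 ran from -0.20 to 0.78, Mmp13 from -0.83 to 0.32, Mmp14 from -0.25 to 0.12 and Timp3 from -0.16 to 0.0226. With array weights Mmp13 was 0.0820 (0.0708 in the probe set fit) and Timp3 0.0209 (0.0370). With median centring Mmp14 was 0.00487, and with its probe sets averaged Timp2 was 0.0962. Of Timp2, 1433662_s_at was -0.0644 with array weights, -0.0859 with the fixed block and -0.00685 with the random block (-0.0637 to 0.11 over the arrays left out), and 1450040_at was -0.0821, -0.205 and -0.0314 (-0.0764 to 0.15). Also of Timp2, 1420924_at was -0.00915 with the fixed block and 1437081_at ran from -0.0131 to 0.21. Of Timp3, 1419088_at was 0.175 with the fixed block and 0.00744 with the random block (-0.24 to 0.0633), 1419089_at ran from -0.11 to 0.13, 1449334_at from -0.0809 to 0.19 and 1449335_at from -0.16 to 0.0226. No paired analysis was possible because the replicate numbers follow accession order and match no control with a null lung; the title number, shared by 1 control and 2 null lungs, was used as a block instead, with the values above.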
